A study of Homo sapiens with 12 samples.

Results

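The genes analyzed here encode the subunits of the transcription factor NF-kB, its inhibitors and its feedback regulators. They comprise 5 DNA-binding subunits (NFKB1, NFKB2, RELA, RELB and REL), 4 proteins of the IkB family (NFKBIA, NFKBIB, NFKBIE and BCL3) and the deubiquitinase TNFAIP3. They were found by symbol in the table of raw counts, which lists 43735 genes. All 10 were listed, 9 had reads and were tested, and NFKBIB had none. MM1S and MM1R are established human multiple myeloma cell lines, derived from malignant plasma cells, of which MM1S is sensitive and MM1R resistant to glucocorticoids (GC). Cultures of either line were left untreated or received withaferin A (WA), a steroidal lactone from the plant Withania somnifera that binds cysteines covalently, at 1 µM for 3 h. Each of the 4 groups had RNA sequencing data from 3 cultures. The MM1S cultures were at passages 16, 22 and 23, and those of MM1R at passages 4, 6 and 7. No vehicle is named in the labels for the untreated cultures, and each GC response is represented by 1 line, so that a difference between MM1S and MM1R cannot be told apart from passage number or from any other difference between these lines.

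Total counts per library ranged from 17625110 to 19368343 (median 18555625). All 10 plasma cell markers were tested, and their summed level was 17494 to 19208 CPM (read counts scaled to the normalized library size) in untreated MM1R, 13645 to 17390 CPM in MM1R with WA, 11369 to 12911 CPM in untreated MM1S and 10335 to 12689 CPM in MM1S with WA. JCHAIN made up the largest share, at 5168 to 12669 CPM per library, where no other plasma cell marker exceeded 1658 CPM. B cell markers summed to at most 0.213 CPM and monocyte markers to at most 0.669 CPM. T cell markers summed to 3.83 to 11.8 CPM, nearly all from CD3E, since CD3D had at most 1 read and CD3G had 0. Red cell markers summed to 3.36 to 9.54 CPM. Stromal markers summed to 3.84 to 4.68 CPM in untreated MM1R and 6.86 to 20.4 CPM in MM1R with WA, and to 2.24 to 4.04 CPM and 3.73 to 8.35 CPM in MM1S, with COL1A2 at 0 reads in every library. Of these, COL1A1 ran from 0.447 to 17.9 CPM, PDGFRB from 1.44 to 2.95 CPM, and DCN had at most 1 read. The lower plasma cell sum and the higher stromal sum with WA in MM1R moved with the results on WA below, and the higher plasma cell sum in MM1R moved with those between the lines. Their part in these results was not tested.

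NF-kB proteins bind DNA as dimers. In resting cells, IkB proteins hold the dimers in the cytoplasm, and receptor signaling through IkB kinases leads to the degradation of IkB and to entry of the dimers into the nucleus. There they switch on genes that include those of their own inhibitors, NFKBIA and TNFAIP3, which closes a feedback loop, and plasma cells and myeloma cells are known for their reliance on this pathway.

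The promoters of the members carried the recognition sequence of NF-kB more often than promoters at large. Windows of 300 bases, from 250 before to 50 after the transcription start, were taken from RefSeq (GRCh38.p14) and searched on both strands for the 10-base kappaB consensus. Windows were at hand for 8 of the 10 members, and RELB and NFKBIE had none. Counted by gene, the consensus was found in 7 of these 8, namely in all but RELA, against 1937 of 27305 genes (7.09%). Counted by window, it was found in 8 of their 13 windows, against 2075 of 35116 (5.91%). The members were chosen as NF-kB genes, so that this is a description and not a test, and a match is not evidence of binding in these cells. Windows with a match are shown for 5 members, to set the regulatory sequence beside the measurements. They lie at chr4:102501109-102501408 on the plus strand for NFKB1, at chr10:102394328-102394627 on the plus strand for NFKB2, at chr2:60881324-60881623 on the plus strand for REL, at chr14:35404700-35404999 on the minus strand for NFKBIA and at chr6:137867009-137867308 on the plus strand for TNFAIP3. Each is written 5′ to 3′ on the strand of its gene, and capitals mark the bases that match the consensus on either strand, with overlapping matches joined.
NFKB1: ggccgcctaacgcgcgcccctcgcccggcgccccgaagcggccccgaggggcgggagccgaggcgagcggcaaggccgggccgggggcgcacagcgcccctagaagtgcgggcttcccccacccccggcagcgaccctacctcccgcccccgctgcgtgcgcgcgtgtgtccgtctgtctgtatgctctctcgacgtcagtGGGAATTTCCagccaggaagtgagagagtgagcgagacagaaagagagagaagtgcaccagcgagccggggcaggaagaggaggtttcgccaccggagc
NFKB2: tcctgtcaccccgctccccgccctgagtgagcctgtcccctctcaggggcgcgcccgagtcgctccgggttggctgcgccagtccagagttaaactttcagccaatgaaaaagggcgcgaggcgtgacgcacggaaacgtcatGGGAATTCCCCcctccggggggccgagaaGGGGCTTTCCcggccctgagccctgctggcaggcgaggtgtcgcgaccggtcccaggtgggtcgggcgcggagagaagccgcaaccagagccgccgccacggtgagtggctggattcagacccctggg
REL: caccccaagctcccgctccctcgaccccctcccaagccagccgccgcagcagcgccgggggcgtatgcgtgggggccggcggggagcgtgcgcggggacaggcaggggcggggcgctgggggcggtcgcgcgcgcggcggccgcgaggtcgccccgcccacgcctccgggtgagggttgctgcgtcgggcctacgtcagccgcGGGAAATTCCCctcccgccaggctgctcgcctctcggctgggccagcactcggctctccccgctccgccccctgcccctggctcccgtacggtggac
NFKBIA: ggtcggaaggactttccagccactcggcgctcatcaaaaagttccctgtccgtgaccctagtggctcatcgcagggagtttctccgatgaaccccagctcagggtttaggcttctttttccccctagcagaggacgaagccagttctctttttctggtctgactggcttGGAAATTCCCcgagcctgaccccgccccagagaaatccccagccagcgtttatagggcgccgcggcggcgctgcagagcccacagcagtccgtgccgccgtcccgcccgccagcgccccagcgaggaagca
TNFAIP3: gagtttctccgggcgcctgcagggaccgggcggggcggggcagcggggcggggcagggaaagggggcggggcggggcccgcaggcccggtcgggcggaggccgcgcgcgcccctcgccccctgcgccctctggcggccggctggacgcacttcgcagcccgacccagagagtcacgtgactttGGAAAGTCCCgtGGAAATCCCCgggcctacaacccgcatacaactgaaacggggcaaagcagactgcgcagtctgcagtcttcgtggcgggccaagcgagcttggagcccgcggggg

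The 10 bases matched in NFKB1, GGGAATTTCC, also occurred in the windows of REL and NFKBIA and in 1 window of NFKBIB. They occurred in 51 of the 35116 windows (0.145%). This sequence was picked from the window of NFKB1, so that the share is a description and not a test of enrichment. Counted from the start site, the match began at -49 in NFKB1. In REL and NFKBIA it lay on the opposite strand, from -46 and -81. The window shown for NFKB2 had matches from -107, -106 and -78, and another window of NFKB2, not shown, had matches from -176 and -21. TNFAIP3 had a pair on the opposite strand from -67 and -55. In BCL3 a match on the opposite strand began at 3, just downstream of the start. With WA, the log2 fold changes in MM1R and MM1S were -0.77 and -0.65 for NFKB1, 0.14 and -0.07 for NFKBIA and 0.21 and -0.09 for REL. Whether these genes differed from each other was not tested.

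To order the members by abundance, counts were divided by the length of the canonical transcript, and the levels in this paragraph are given as CPM per kb with the SD of 3 cultures. In untreated MM1R, NFKB2 was the most abundant at 82.8 ± 8.12 CPM per kb, followed by TNFAIP3 at 72.0 ± 22.7 and RELA at 54.7 ± 1.34. RELB stood at 25.9 ± 2.20, NFKB1 at 24.8 ± 2.35 and NFKBIA at 20.2 ± 1.13 CPM per kb. BCL3 and NFKBIE were lower, at 12.5 ± 1.43 and 12 ± 1.18 CPM per kb, and REL was the lowest of those with reads at 0.132 ± 0.0522. Neighbors in this order differed by less than their spread for NFKB2 and TNFAIP3, for TNFAIP3 and RELA, for RELB and NFKB1 and for BCL3 and NFKBIE. In untreated MM1S the order was the same apart from RELB with NFKB1 and BCL3 with NFKBIE, with NFKB2 at 90.6 ± 8.31, TNFAIP3 at 81.4 ± 15, RELA at 51.2 ± 2.48, NFKB1 at 28.6 ± 0.417, RELB at 26.6 ± 1.58, NFKBIA at 24.5 ± 3.54, NFKBIE at 11.1 ± 1.61, BCL3 at 10.5 ± 2.39 and REL at 0.410 ± 0.142 CPM per kb. Of the subunits that are made as precursors and processed, NFKB2 stood at 2.92 to 6.60 times the level of NFKB1 over all libraries. REL, the c-Rel subunit known from lymphoid cells, stood at 0.00177 to 0.0105 of the level of RELA, with a canonical transcript of 11108 bases.

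NFKBIB, which encodes IkB-beta (chr19:39390340-39399533 on GRCh37, plus strand, 6 exons), was listed at 0 reads in all 12 libraries, and so was a second, numbered entry of the same symbol. Of 1227 protein-coding symbols with such a numbered copy, 645 (52.6%) had no read in any library, against 2327 of 17641 (13.2%) without one. Whether reads of NFKBIB were lost to the copy in counting was not tested, and no level or fold change is given for it. The overlapping SIRT2 gene had 4 to 17 reads.

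**Figure D1:**
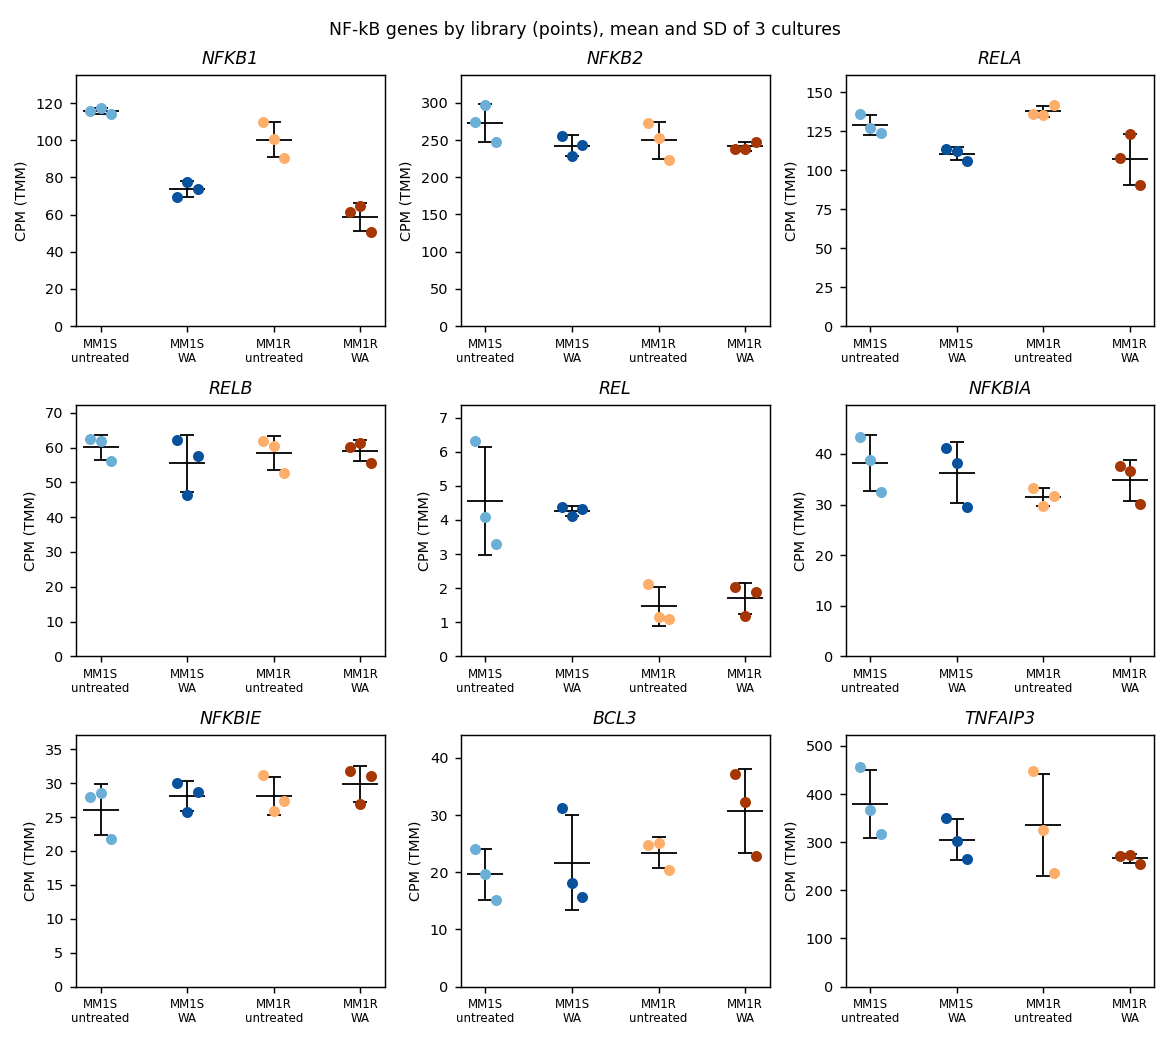
Normalized counts of the 9 members with reads, in CPM (y axis, linear, from 0) for each group (x axis); points are libraries in order of passage number from left to right, the horizontal mark is the mean and the bar the SD of 3 cultures. NFKB1 lay between 50.5 and 77.8 CPM with WA and between 90.7 and 117 CPM without, and REL lay below 2.2 CPM in all 6 MM1R libraries and above 3.2 CPM in all 6 MM1S libraries.

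To find which members responded to WA, treated and untreated cultures were compared within each line. NFKB1 fell in both lines, RELA fell in MM1R, and no member was called higher in the main fit. By edgeR's quasi-likelihood test at an adjusted p of 0.05, 2 of the 9 tested members were called lower in MM1R, where 14% of all 14085 tested genes were called and 6.46% were called lower. In MM1S 1 of the 9 was called lower, where 10.5% of genes were called and 4.23% were called lower. These shares are near enough to the background that the number of members called is not a result about the pathway as a whole, and the members' median on the log2 scale was 0.02 in MM1R and -0.12 in MM1S, beside 0.01 for all tested genes in either line. These are bulk samples, in which fewer cells of a type and less RNA per cell cannot be told apart.

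NFKB1 encodes p105, the precursor that is processed to the p50 subunit. The gene has 24 exons and lies at chr4:103422487-103538459 (GRCh37, plus strand). In untreated MM1R it was at 109.7, 101 and 90.7 CPM in passages 4, 6 and 7, and with WA it was at 61.4, 64.6 and 50.5 CPM. The MM1S cultures held 116, 117 and 114 CPM untreated and 69.4, 77.8 and 74.0 CPM with WA, in passages 16, 22 and 23. Every treated library was thus below every untreated library, also across the lines. Within a line, ranges did not overlap in this direction for 16% of all tested genes in MM1R and 13.9% in MM1S. The share across both lines was not computed. The log2 fold change was -0.77 in MM1R (SE 0.11, 95% interval -1.01 to -0.53, edgeR adjusted p = 0.00068), which leaves 0.586 of the untreated level. For MM1S the value was -0.65 (SE 0.11, 95% interval -0.89 to -0.41, edgeR adjusted p = 0.0023), or 0.636 of the untreated level. Within pairs of the same passage, NFKB1 was lower in 6 of 6, by log2 changes of -0.83, -0.64 and -0.84 in MM1R and of -0.74, -0.59 and -0.62 in MM1S. The share of all tested genes that changed in the same direction in every pair was not computed, here or for the members below. By p it ranked 178 in MM1R and 286 in MM1S among the 14085 genes. The call held in both lines under all 19 alternatives, with adjusted p-values up to 0.005 in MM1R and 0.014 in MM1S (edgeR or DESeq2).

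RELA encodes p65, which carries the transactivation domain of the most common NF-kB dimer (chr11:65421070-65430561 on GRCh37, minus strand, 11 exons). In MM1R it was at 136, 135 and 142 CPM untreated and at 108, 123 and 90.4 CPM with WA in passages 4, 6 and 7. In MM1S the values were 136, 127 and 124 CPM untreated and 114, 112 and 106 CPM with WA. The ranges did not overlap in either line, which was true for 16% of all tested genes in this direction in MM1R and 13.9% in MM1S. The log2 fold change was -0.36 in MM1R (SE 0.11, 95% interval -0.60 to -0.12, edgeR adjusted p = 0.044) and -0.22 in MM1S (SE 0.11, 95% interval -0.46 to 0.02, edgeR adjusted p = 0.24). The call in MM1R was close to the limit. It was lost in 10 of 12 fits with 1 library left out, where the adjusted p was 0.053 to 0.21 (edgeR), and it held only without treated MM1R of passage 6 (0.026) or treated MM1S of passage 16 (0.041). In the same fits, leaving out the treated MM1R culture of passage 7 gave a value of -0.23 (edgeR adjusted p = 0.21). With passage as a replicate block it held, with adjusted p = 0.012 by edgeR and 0.0034 by DESeq2. The antisense gene RELA-DT overlaps RELA and had 24 to 50 reads, and the strand setting of the counting is not stated.

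For the other 3 subunits no change with WA was called. NFKB2 encodes p100, the precursor of p52 in the non-canonical pathway (chr10:104153867-104162281 on GRCh37, plus strand, 23 exons). It was at 272, 253 and 224 CPM in untreated MM1R and at 238, 238 and 248 CPM with WA, and the interval of its log2 fold change was -0.28 to 0.18. The MM1S cultures held 274, 297 and 247 CPM untreated and 256, 228 and 243 CPM with WA, with an interval of -0.40 to 0.06. These intervals leave no room for a fall of NFKB2 as large as the fitted one of NFKB1 in either line. RELB, the partner of p52 (chr19:45504719-45541450 on GRCh37, plus strand, 12 exons), had log2 fold changes of 0.02 in MM1R (95% interval -0.24 to 0.27) and -0.12 in MM1S (95% interval -0.38 to 0.14). Its libraries ranged from 46.2 to 62.5 CPM over all 4 groups. REL (chr2:61108626-61158747 on GRCh37, plus strand, 10 exons) had 19 to 122 reads per library, and its intervals ran from -0.52 to 0.93 in MM1R and from -0.73 to 0.54 in MM1S. The interval for MM1S includes a fall as large as the fitted one of NFKB1, and that for MM1R does not.

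No IkB gene and no feedback gene passed the test with WA in the main fit, which had no block for passage. With passage as a replicate block, BCL3 passed in MM1R by edgeR alone and TNFAIP3 in MM1S by DESeq2 alone. NFKBIA encodes IkB-alpha, the inhibitor that NF-kB induces most directly (chr14:35870285-35873955 on GRCh37, minus strand, 6 exons). In MM1R it was at 33.2, 29.7 and 31.6 CPM untreated and at 37.7, 36.6 and 30.1 CPM with WA, and in MM1S at 43.4, 38.7 and 32.4 CPM untreated and at 41.1, 38.3 and 29.5 CPM with WA. The groups overlapped in both lines, with log2 fold changes of 0.14 (95% interval -0.17 to 0.46) and -0.07 (95% interval -0.39 to 0.24). NFKBIE, which encodes IkB-epsilon (chr6:44225903-44233525 on GRCh37, minus strand, 6 exons), stayed between 21.8 and 31.8 CPM in all libraries. Its log2 fold changes were 0.09 in MM1R (95% interval -0.20 to 0.38) and 0.11 in MM1S (95% interval -0.18 to 0.40).

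BCL3, an IkB protein that acts in the nucleus with p50 or p52 dimers (chr19:45250962-45263301 on GRCh37, plus strand, 9 exons), was at 24.8, 25.2 and 20.3 CPM in untreated MM1R and at 37.2, 32.3 and 22.8 CPM with WA. It was higher with WA in each of the 3 pairs of MM1R, by log2 changes of 0.58, 0.35 and 0.16. The log2 fold change of 0.39 (95% interval -0.14 to 0.93, edgeR adjusted p = 0.33) did not pass the test. With passage as a replicate block it was 0.38 and passed with edgeR (adjusted p = 0.033) but not with DESeq2 (adjusted p = 0.055). In MM1S the values of BCL3 were 24.1, 19.7 and 15.2 CPM untreated and 31.2, 18.1 and 15.7 CPM with WA, and the interval was -0.40 to 0.68.

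TNFAIP3 encodes A20, a deubiquitinase that dampens signaling upstream of the IkB kinases (chr6:138188351-138204451 on GRCh37, plus strand, 9 exons). It was at 447, 324 and 236 CPM in untreated MM1R and at 271, 273 and 255 CPM with WA, so that the untreated cultures were further apart than the treated ones. In MM1S it was at 455, 366 and 317 CPM untreated and at 351, 301 and 264 CPM with WA, and it was lower with WA in 3 of 3 pairs of MM1S and in 2 of 3 pairs of MM1R. The log2 fold changes were -0.34 (95% interval -0.76 to 0.08, edgeR adjusted p = 0.29) and -0.31 (95% interval -0.73 to 0.11, edgeR adjusted p = 0.36), and the former was -0.08 without the untreated culture of passage 4. With passage as a replicate block the adjusted p was 0.091 in MM1R and 0.082 in MM1S by edgeR, and in MM1S it was 0.039 by DESeq2. The antisense gene WAKMAR2 overlaps TNFAIP3 and had 19 to 55 reads.

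**Figure D2:**
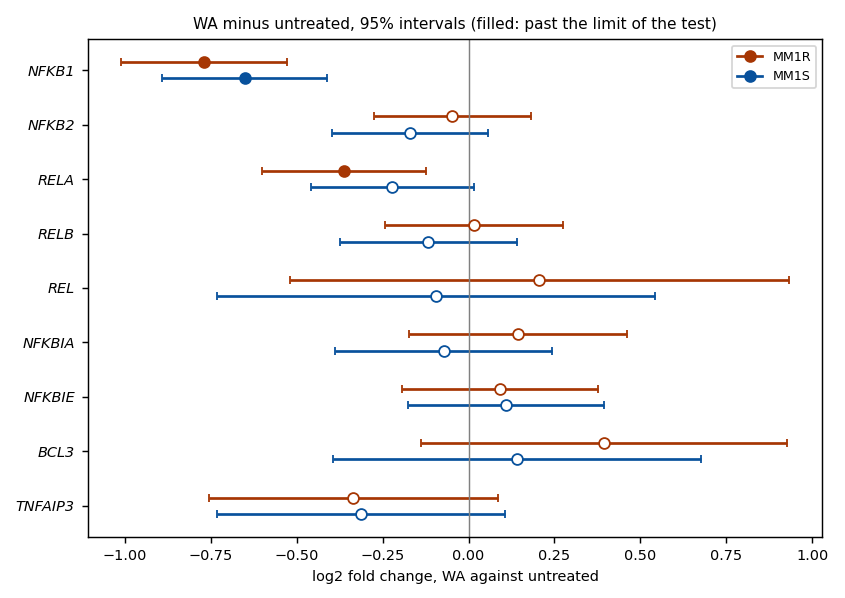
Log2 fold change of WA against untreated (x axis) for the 9 tested members (y axis) in MM1R and MM1S; points are the fitted values, bars the 95% intervals, and filled points passed the adjusted p of 0.05. NFKB1 is filled in both lines at -0.77 and -0.65 and RELA in MM1R alone at -0.36.

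Whether the lines responded to WA differently was tested as an interaction. No member was called, and all 9 had an adjusted p of 1 (edgeR). The difference of the log2 fold changes, MM1R less MM1S, was -0.12 for NFKB1 (95% interval -0.46 to 0.22), -0.14 for RELA (95% interval -0.48 to 0.20) and 0.25 for BCL3 (95% interval -0.50 to 1.01). The call of RELA in MM1R alone is thus not a difference between the lines that this test detected. Among all tested genes 0 (0%) were called by edgeR, 97 (0.689%) had an unadjusted p under 0.05, DESeq2 called 1 and DESeq2 with the replicate block 6, and edgeR without a filter called 11. The share of 0.689% is smaller than a limit of 0.05 gives where no gene differs. The test was thus conservative, and a missing call, for the members or for genes below, does not show that the lines responded alike. The main fit had no block for passage, and its part in this was not tested.

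Within a library, the ratios of NFKBIA, NFKB2 and RELA to NFKB1 were higher with WA. These ratios were chosen after the values were seen, and they are given as a description, per kb of canonical transcript. They share the denominator NFKB1, which fell with WA, so that their rise largely restates this fall and they are not separate results. NFKBIA stood at 0.766 to 0.908 of NFKB1 in untreated MM1R and at 1.47 to 1.59 with WA. In MM1S this ratio was 0.739 to 0.973 untreated and 1.04 to 1.54 with WA. NFKB2 stood at 3.32 to 3.37 times NFKB1 in untreated MM1R and at 4.96 to 6.60 times with WA, and at 2.92 to 3.41 and 3.95 to 4.96 times in MM1S. RELA stood at 2.0 to 2.51 times NFKB1 in untreated MM1R and at 2.83 to 3.07 times with WA, and at 1.74 to 1.89 and 2.30 to 2.64 times in MM1S. For each of these ratios to NFKB1 the ranges of treated and untreated libraries did not overlap within a line. Ratios of NFKBIA, RELB and REL to RELA were also computed. All of them overlapped in MM1S, for NFKBIA at 0.422 to 0.515 untreated and 0.449 to 0.584 with WA. In MM1R only that of REL overlapped. How often ratios of other genes do not overlap was not computed.

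**Figure D3:**
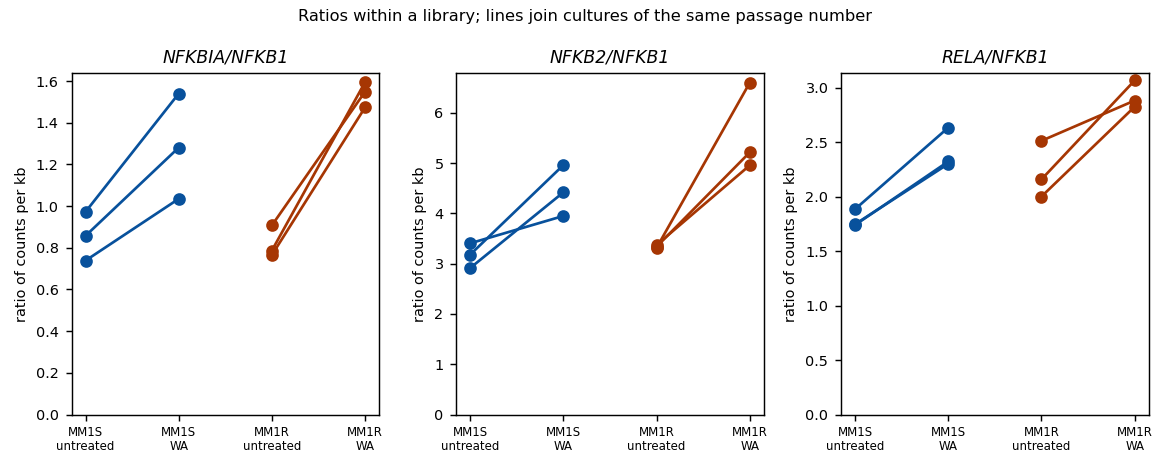
Ratio of counts per kb (y axis, linear, from 0) of NFKBIA, NFKB2 and RELA to NFKB1 in each library, by group (x axis); lines join the 2 cultures of a line that carry the same passage number. All 18 lines rise from untreated to WA, for NFKBIA to NFKB1 in MM1R from 0.766 to 0.908 up to 1.47 to 1.59. The shared denominator NFKB1 itself fell with WA.

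To see whether the GC-resistant line differed from the sensitive one, MM1R was compared with MM1S. REL was lower in MM1R, and no other member passed the limits. Among the 9 members, 1 was called lower in untreated cells by an adjusted p under 0.01 together with a log2 difference of at least 1, where 2.97% of all tested genes were called and 1.49% were called lower. REL was at 2.13, 1.15 and 1.11 CPM in untreated MM1R and at 6.32, 4.08 and 3.28 CPM in untreated MM1S. This is 41, 21 and 19 reads against 122, 79 and 66. The log2 fold change was -1.63 (SE 0.32, 95% interval -2.31 to -0.94, edgeR adjusted p = 0.0049), or 0.324 of the level in MM1S. The call was lost without untreated MM1R of passage 6 (adjusted p = 0.028, edgeR) or 7 (adjusted p = 0.027, edgeR), and without untreated MM1S of passage 22 (adjusted p = 0.013, edgeR) or 16 (adjusted p = 0.015, edgeR). The log2 fold change stayed between -2.0 and -1.32 in all 12 fits with 1 library left out.

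With WA, REL was at 2.02, 1.18 and 1.88 CPM in MM1R and at 4.38, 4.11 and 4.31 CPM in MM1S. The log2 fold change was -1.33 (SE 0.32, 95% interval -2.01 to -0.64), past the limit on the fold change but not that on the adjusted p (0.016, edgeR). DESeq2 called it, with an adjusted p of 0.0016. The ranges of REL did not overlap between the lines with or without WA, which was true for 15.7% of tested genes in this direction untreated and 14.4% with WA. The number of members called with WA was 0, against 3.04% of all tested genes, of which 1.41% were called lower.

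NFKB1 was the other member whose ranges did not overlap between the lines, with or without WA. Its log2 fold change between the lines was -0.21 untreated (95% interval -0.45 to 0.03, edgeR adjusted p = 0.26) and -0.32 with WA (95% interval -0.57 to -0.08, edgeR adjusted p = 0.078). Its 4 groups therefore ran, from high to low, from untreated MM1S (116 ± 1.69 CPM) and untreated MM1R (100.4 ± 9.52 CPM) to MM1S with WA (73.7 ± 4.20 CPM) and MM1R with WA (58.8 ± 7.39 CPM), where the lines did not differ past the limit within a treatment. For the other 7 members the log2 fold changes between the lines ran from -0.28 for NFKBIA to 0.25 for BCL3 untreated, and from -0.20 for TNFAIP3 to 0.51 for BCL3 with WA. None of their adjusted p-values was below 0.2 (edgeR) in the fit to all libraries. The value of BCL3 with WA rested on single libraries, since it was 0.86 without MM1S with WA of passage 16 (edgeR adjusted p = 0.015) and 0.32 without MM1S with WA of passage 23 (edgeR adjusted p = 0.51). The comparisons with and without WA share no libraries, but each shares its libraries with the comparisons on WA.

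**Figure D4:**
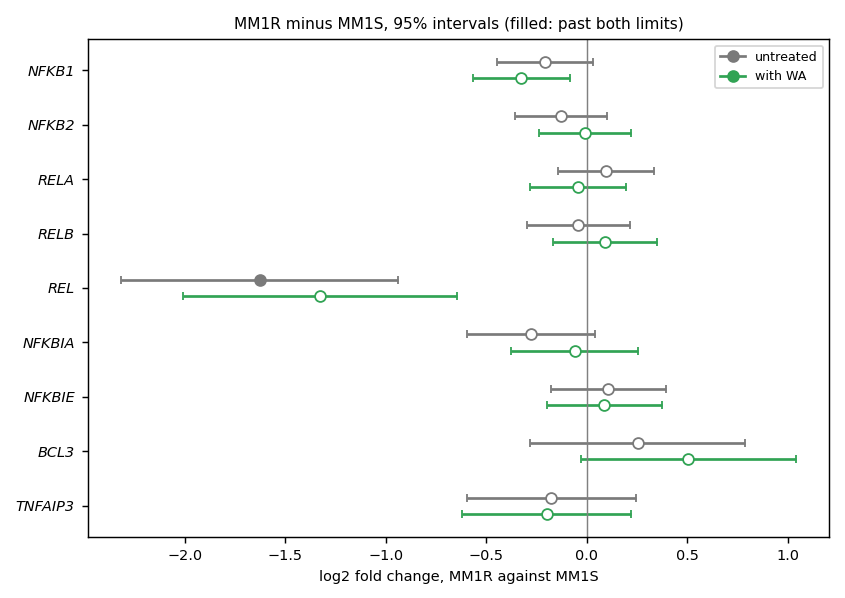
Log2 fold change of MM1R against MM1S (x axis) for the 9 tested members (y axis), untreated and with WA; points are the fitted values, bars the 95% intervals, and filled points had an adjusted p under 0.01 and differed by at least 1 on the log2 scale. REL lies at -1.63 untreated, where it is filled, and at -1.33 with WA, and the intervals of all other members include 0 except that of NFKB1 with WA, -0.57 to -0.08.

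The genes around these members were taken from 4 lists of 122 NF-kB pathway genes, of which 87 were tested. With WA, 9 of the 87 rose and 7 fell in MM1R, and 7 rose and 5 fell in MM1S, beside 7.55% of all tested genes called higher and 6.46% called lower in MM1R, and 6.25% and 4.23% in MM1S. The median of the 87 genes on the log2 scale was 0.05 in MM1R and 0.08 in MM1S. The counts per list below are to be read beside the shares of all tested genes given here, and no list was tested as a set. With passage as a replicate block in edgeR, 22 rose and 16 fell in MM1R and 18 rose and 14 fell in MM1S, and over all 14085 tested genes the calls rose to 4094 and 3399. With the block, the share called was larger among the 87 genes than among all genes in either line. Whether this is more than their choice or expression level gives was not tested.

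Among 32 receptors and adaptors, 6 rose and 2 fell in MM1R, and 5 rose and 1 fell in MM1S. TRAF6, a ubiquitin ligase downstream of Toll-like and IL-1 receptors, rose by a log2 fold change of 1.39 in MM1R (SE 0.13, edgeR adjusted p = 2.3e-05) and 1.2 in MM1S (SE 0.13, edgeR adjusted p = 7.1e-05). IRAK2, a kinase-like adaptor of the same receptors, rose by 1.22 (SE 0.31, edgeR adjusted p = 0.019) and 1.62 (SE 0.32, edgeR adjusted p = 0.0065). The adaptor BCL10 rose by 0.52 in MM1R (SE 0.15, edgeR adjusted p = 0.036) and 0.62 in MM1S (SE 0.15, edgeR adjusted p = 0.019). In MM1S the call was lost without untreated passage 23 or WA passage 16 or 23 (0.56 to 0.58), and in MM1R without any 1 of its untreated cultures, its treated culture of passage 7 or untreated MM1S of passage 22 (0.36 to 0.55). TLR4, the receptor for bacterial lipopolysaccharide, fell in MM1R and MM1S with log2 fold changes of -0.76 (edgeR adjusted p = 0.0034) and -0.79 (edgeR adjusted p = 0.0035), and TLR1 fell in MM1R with -0.56 (edgeR adjusted p = 0.029). In MM1S, TLR1 was at -0.50, just short of the limit (edgeR adjusted p = 0.05) and past it with passage as a block (-0.50, edgeR adjusted p = 0.011), and its difference between the lines had an adjusted p of 1 (edgeR). The call of TLR1 in MM1R was lost without untreated passage 4 or 7 or WA passage 6 or 7 (-0.60 to -0.42), and that of IRAK2 in MM1R without untreated passage 6 or 7 or WA passage 4 (0.94 to 1.19).

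Among 9 kinases, 2 fell in MM1R and none was called in MM1S. IKBKB, the catalytic subunit of the IkB kinase complex that acts in the canonical pathway, went from 46.5 to 34.1 CPM on average in MM1R, with a log2 fold change of -0.45 (SE 0.10, edgeR adjusted p = 0.012). The related kinase IKBKE had -0.57 (SE 0.17, edgeR adjusted p = 0.038). In MM1S the log2 fold changes were -0.26 for IKBKB (edgeR adjusted p = 0.12) and -0.50 for IKBKE (edgeR adjusted p = 0.073), and neither gene passed the test of the difference between the lines (adjusted p = 1). Leaving out any 1 of the 6 MM1R libraries ended the call of IKBKE (-0.64 to -0.50), and leaving out the treated MM1R culture of passage 6 or 7 ended that of IKBKB (-0.42 to -0.39). Over all 19 alternatives, IKBKE was called in 12 in MM1R and in 5 in MM1S. IKBKB was called in 17 in MM1R and in 1 in MM1S. Both genes kept a negative log2 fold change in either line under every alternative.

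Of 18 other IkB proteins and negative regulators, 2 rose in MM1R and 1 in MM1S, and none fell. Among all tested genes 6.46% were called lower in MM1R and 4.23% in MM1S. With 18 genes, the absence of a call in this direction is no result about these regulators. OTULIN, a deubiquitinase that removes linear ubiquitin chains, rose by a log2 fold change of 0.68 in MM1R (SE 0.11, edgeR adjusted p = 0.00099) and 0.74 in MM1S (SE 0.11, edgeR adjusted p = 6e-04). ZC3H12A, the RNase Regnase-1, rose by 1.22 in MM1R (SE 0.33, edgeR adjusted p = 0.024). In MM1S it had a log2 fold change of 0.94 (edgeR adjusted p = 0.083; 0.87 with passage as a block, adjusted p = 0.036), and its difference between the lines had an adjusted p of 1 (edgeR). Leaving out the treated MM1R culture of passage 7 gave 0.70 in MM1R (edgeR adjusted p = 0.11), and the call there was also lost without untreated passage 6 (1.21) or 7 (1.13).

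Of 57 NF-kB target genes, 28 were tested, and 1 rose and 3 fell in MM1R while 1 rose and 4 fell in MM1S. The chemokine gene CXCL10 fell in both lines, with log2 fold changes of -1.76 in MM1R (SE 0.43, edgeR adjusted p = 0.015) and -1.83 in MM1S (SE 0.46, edgeR adjusted p = 0.022). In MM1S it was at -0.99 without untreated passage 16 (edgeR adjusted p = 0.077), and single-library fits also lost the call without WA passage 22 (-1.57) or 23 (-1.72), and in MM1R without WA passage 7 (-1.70). CCND1, which encodes cyclin D1, had log2 fold changes of -1.39 (SE 0.20, edgeR adjusted p = 0.00068) and -0.79 (SE 0.20, edgeR adjusted p = 0.021). IRF4, a transcription factor of plasma cells that was also among the plasma cell markers, had log2 fold changes of -0.96 (SE 0.18, edgeR adjusted p = 0.0032) and -0.73 (SE 0.18, edgeR adjusted p = 0.019). The transcription factor gene KLF6 rose by 1.06 (SE 0.17, edgeR adjusted p = 0.0013) and 0.76 (SE 0.17, edgeR adjusted p = 0.012). In MM1S the calls of CCND1 and IRF4 were lost without untreated passage 22 or 23 or WA passage 16, and that of CCND1 also without WA passage 23 (-0.78 to -0.68 for CCND1 and -0.67 to -0.58 for IRF4). That of KLF6 was lost without untreated (0.73) or WA (0.62) passage 23. Of the pathway genes, 9 had a numbered copy in the table, and 7 of these had no read, among them TNF, LTA, LTB and CCL3, so that these targets have no value.

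**Figure D5:**
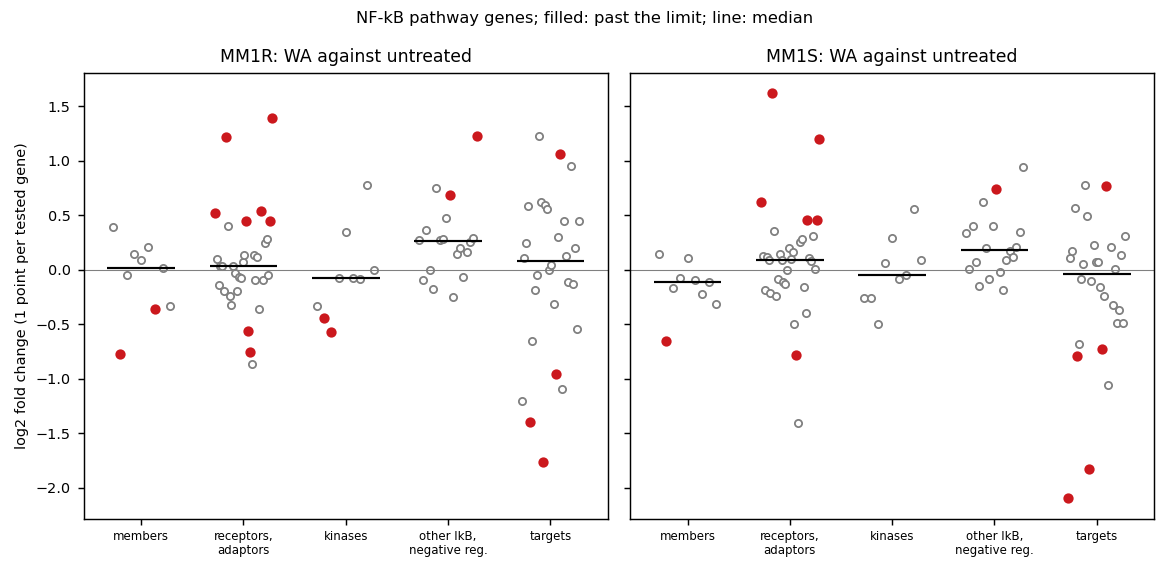
Log2 fold change of WA against untreated (y axis) for every tested gene of the members and of the 4 pathway lists (x axis), in MM1R (left) and MM1S (right); filled points passed an adjusted p of 0.05 and horizontal lines are list medians. The medians of the 4 pathway lists lie between -0.08 and 0.26 in both lines, while single genes such as TRAF6 at 1.39 and 1.2 stand well above them.

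Between the lines, 1 of the 87 pathway genes passed both limits in untreated cells and 1 with WA, beside 2.97% and 3.04% of all tested genes, so that these counts are no result about the pathway. PELI1, a ubiquitin ligase of the Toll-like and IL-1 receptor pathway, was at 30.1 CPM in untreated MM1R and 68.0 CPM in untreated MM1S, with a log2 fold change of -1.17 (SE 0.17, edgeR adjusted p = 0.00058). Without untreated MM1R of passage 7 it was -0.97, inside the limit on the fold change. With WA it was -0.84 (edgeR adjusted p = 0.0057), past the limit on the adjusted p and inside that on the fold change. ICAM1, an adhesion molecule and NF-kB target, was at 90.5 CPM in MM1R and 11.2 CPM in MM1S with WA, with a log2 fold change of 3.02 (SE 0.60, edgeR adjusted p = 0.0055). In untreated cells the log2 fold change was 2.69 (edgeR adjusted p = 0.011), just short of the limit, and it passed without untreated MM1S of passage 16 (3.87) or treated MM1S of passage 16 or 22 (2.69 in both). The call with WA was lost without any 1 of the 3 treated MM1R cultures or treated MM1S of passage 22 or 23 (2.62 to 3.11), where the adjusted p was 0.014 to 0.029 (edgeR). Over all 17 alternatives between the lines, ICAM1 was called in 6 untreated and in 12 with WA, so that the call depended on the setting as well as on single libraries.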

How the data were processed

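RNA sequencing of 12 cultures (MM1S and MM1R, untreated or with WA, n = 3 per group) was analyzed. The authors assessed reads with FastQC 0.11.5, mapped them to hg19 with STAR 2.7.3a and deposited a table of raw counts per gene, without normalization. The authors also deposited normalized values (signal: count over library size factor), which were not used. Neither the gene models nor the strand handling used in counting are given in the sources used here. Chi-square over degrees of freedom between replicates was 8.74 to 48.7, so that each library was counted once in n.

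Genes were kept with edgeR's filterByExpr (minimum count 10), scaled by TMM and tested with the quasi-likelihood test of edgeR 4.0.16 (limma 3.58.1, R 4.3.3) fitted to the 12 libraries together, with p-values adjusted over 14085 genes by Benjamini-Hochberg. WA was tested within each line and as an interaction at an adjusted p of 0.05, and MM1R against MM1S with the limits of 0.01 on the adjusted p and 1 on the size of the log2 fold change. Intervals are 95% intervals of the log2 fold change from the fit. Log2 changes within pairs used CPM with a pseudocount of 0.5. Gene positions and canonical transcript lengths are from GENCODE on GRCh37, promoter windows from RefSeq on GRCh38.p14. The members, pathway lists and markers were chosen with earlier results of these data known. Named in the text are the 10 members, overlapping genes, and in each pathway list up to 4 called genes with the largest change and a mean of at least 1 CPM; the 4 targets with a numbered copy named beside them were chosen after their values were seen.

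Whether passage pairs the cultures was checked by correlating deviations from the group mean. Cultures of the same passage correlated at 0.43, 0.22 and 0.25 (passages 4, 6 and 7) and 0.74, 0.26 and 0.49 (passages 16, 22 and 23), and were treated as paired in the fit with passage as replicate block. Cultures of different passages correlated at -0.38 to 0.11 in MM1R and at -0.65 to 0.42 in MM1S. The deviations of the cultures in a group cancel out, so that a positive value for the same passage lowers those for different passages in part by construction. In MM1S, untreated passage 23 with WA passage 22 (0.42) and untreated passage 22 with WA passage 23 (0.35) exceeded the same-passage value of passage 22. The lines share no passage, so that no such fit exists between lines. The alternatives were DESeq2's size factors, DESeq2 1.42.0, no filter, at least 10 reads in every library, only the libraries compared, the replicate block, other limits and each library left out in turn. The script was tested on simulated data.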

Additional observations from a re-analysis of the deposited data

How the results depend on the processing

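No call of NFKB1 with WA was lost under the 19 alternatives in either line, whereas the calls of RELA and REL depended on the setting and on single libraries. The number of members called with WA in MM1R was 1 with an adjusted p of 0.01, without a filter, with 10 reads or more per library and with only the libraries compared, since RELA was lost, and 1 to 2 with 1 library left out. In MM1S it was 2 with the replicate block in DESeq2. Between untreated lines it was 0 with only the libraries compared and 0 to 1 with 1 library left out, and with WA it was 1 without a filter, with DESeq2 and at an adjusted p of 0.05 with no limit on the fold change, and 0 to 1 with 1 library left out. Except where a setting has fewer genes or libraries by its construction, the cause was not tested.

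The number of genes called with WA in MM1R was 812 at an adjusted p of 0.01, 4094 and 3424 with the replicate block in edgeR and DESeq2, and 950 to 2396 with 1 library left out. In MM1S it was 556, 3399, 2930 and 726 to 1621 under the same settings. Between untreated lines it was 1681 at an adjusted p of 0.05 with no limit on the fold change, 811 with no filter, 234 with 10 reads or more per library and 268 to 537 with 1 library left out. With WA it was 1690, 819, 222 and 264 to 649. For the difference between lines it was 11 with no filter, 1 with DESeq2 and 6 with the replicate block in DESeq2.

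Changes of sign occurred only for log2 fold changes that no test called. RELB with WA in MM1R was at -0.0071 with no filter and at -0.00157 with only the libraries compared. NFKB2 between lines with WA was at 0.022 with 10 reads or more per library and at 0.00355 with only the libraries compared, and the difference between lines was at 0.00730 for NFKBIE with at least 10 reads and at 0.017 and 0.026 for TNFAIP3 with the replicate block in edgeR and DESeq2. With 1 library left out, values that changed sign ran, with WA in MM1R, from -0.12 to 0.017 for NFKB2 and from -0.055 to 0.082 for RELB, and with WA in MM1S from -0.28 to 0.21 for REL, -0.18 to 0.056 for NFKBIA, -0.0060 to 0.18 for NFKBIE and -0.21 to 0.33 for BCL3. Between untreated lines they ran from -0.091 to 0.026 for RELB, -0.0087 to 0.18 for NFKBIE and -0.44 to 0.022 for TNFAIP3, and between lines with WA from -0.050 to 0.030 for NFKB2, -0.14 to 0.087 for RELA, -0.026 to 0.18 for RELB and -0.19 to 0.059 for NFKBIA. For the difference between lines they ran from -0.19 to 0.0092 for NFKB1, -0.0099 to 0.68 for REL, -0.091 to 0.094 for NFKBIE and -0.22 to 0.24 for TNFAIP3. With the replicate block, BCL3 in MM1R (edgeR) and TNFAIP3 in MM1S (DESeq2) gained a call, and no call of a member was lost. REL had the fewest reads of the tested members, 19 to 122 per library, and how far depth sets its intervals was not tested.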

Other observations

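The genes whose level followed that of NFKB1 most closely over the 12 libraries, among 12320 genes with enough reads, were ANKRD27 (Pearson's r = 0.98), FBH1 (0.98) and TBC1D25 (0.98), given as a description with no test, since all libraries share line and treatment groups. Among tested genes with a promoter window, those with the kappaB consensus were called lower with WA about as often as those without it, at 7.42% of 916 against 7.03% of 9487 in MM1R and 4.69% against 4.71% in MM1S. They were called higher at 6.99% against 7.80% in MM1R and 5.57% against 6.51% in MM1S. These shares are given as a description and were not tested.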
